A study of Mus musculus with 6 samples.

Results

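Interferon-stimulated genes were followed in colonic crypts of a mouse model of Lynch syndrome, the inherited loss of DNA mismatch repair. The members were chosen by name, as the rows of the crypt table whose gene symbol is on a list of 39 names of interferon-stimulated genes, and 38 of the 18049 genes in the table were found. The remaining name, *Rigi*, is the current symbol of *Ddx58*, and the table carries the older one. The rule itself uses no measured value. Total RNA-Seq had been performed on crypts of 3 control mice and 3 mice given GSK503, an inhibitor of the histone methyltransferase EZH2, with 1 library per mouse. All 6 mice were of a C57BL/6J-based line that carries the *Villin-Cre* transgene, which is active in the intestinal epithelium, together with LoxP-flanked mismatch repair alleles and a humanized *TgfβRII* knock-in, and they were fed a Western-style diet from 8 weeks of age. GSK503 was given by tail vein at 200 μg/kg in PBS and control mice received 20% captisol in PBS, in a trial of 9 weeks. The loss of mismatch repair is therefore shared by both groups and limited to cells in which the *Villin* promoter is active, and no mouse with intact mismatch repair was part of the comparison.

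Interferons are secreted proteins that warn cells of viruses and other microbes. Type I and type III interferons bind their receptors and activate the kinases JAK1 and TYK2, and a complex that contains STAT2 and IRF9 then binds the interferon-stimulated response element (ISRE) in target promoters. Interferon gamma, the type II interferon, acts mainly through STAT dimers that bind the gamma-activated site (GAS). The induced genes encode RNA and DNA sensors, transcription factors that amplify the signal, and effectors that block viral replication or attack intracellular microbes. In the gut, epithelial cells respond to type III interferon and to interferon gamma, and a basal level of these genes is present without infection. EZH2 places the repressive mark H3K27me3 on chromatin, and the comparison asks whether the interferon-stimulated genes of the crypt differed between mice with and without the inhibitor.

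Values are estimated counts brought to a common library size (CPM) after TMM scaling, the trimmed mean of M values, which makes libraries of different composition comparable. They are called scaled CPM here. The libraries held an estimated 108162848 to 135085026 counts, so that 3 counts corresponded to 0.0228 to 0.0271 scaled CPM, and these floors cover counting error only. The lowest value of any member in any mouse was 3.58 and the highest was 343, far above that floor. The 2 groups were tested with limma on log2(value + 0.1), with Benjamini-Hochberg adjustment over the 16670 genes that had at least 0.1 in at least 3 mice, and all 38 members passed this filter. A log2FC is the mean of the GSK503-treated mice minus that of the control mice on this scale.

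Several facts about the libraries bear on every comparison that follows. The female-specific *Xist* RNA ranged from 0.419 to 0.936 in the controls and from 825 to 1236 in the GSK503 mice. Single values of 4 Y-linked genes ranged from 42.5 to 91.7 in the controls and from 0 to 1.082 in the GSK503 mice. The 2 groups therefore differed in sex as well as in treatment, and the effects of the 2 cannot be told apart. All 38 members lie on autosomes. The crypts carried their label, with 8 of 8 epithelial markers present and summed levels between 12677 and 16015, while 9 macrophage markers summed to between 8.47 and 67.1. *Ezh2* itself measured 46.7, 37.4 and 46.5 scaled CPM in controls 1, 2 and 3, against 36.6, 35.2 and 36.3 in GSK503 mice 1, 2 and 3 (log2FC −0.27, standard error 0.10, adjusted p = 0.291). The inhibitor acts on the enzyme, so the *Ezh2* transcript does not check the treatment.

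The interferon response elements were read from promoter sequences, from 250 bases before to 50 bases after the RefSeq transcription start, for the 29 members present in the RefSeq promoter table. A gene was counted as holding a core if any of its promoters in the table held it. The ISRE core is spelled GAAA, any 2 bases and GAAA, or TTTC, any 2 bases and TTTC when read on the other strand. It was found for 17 of the 29 members (58.6%), against 3.99% of all 27025 genes in the promoter table. The GAS core, TTCNNNGAA, which reads the same on both strands, was found for 10 of 29 (34.5%) against 9.55% of all genes in that table. Both cores were present for 5 of 29 (17.2%) against 0.614%. Among the 6 guanylate-binding and immunity-related GTPase genes, 5 held an ISRE core and 2 held a GAS core. Of the 8 Ifit and Oas genes in the promoter table, 5 held an ISRE core and 2 held a GAS core. *Dhx58*, *Ifi27*, *Mx1*, *Mx2*, *Oas2*, *Parp14*, *Rtp4*, *Usp18* and *Zbp1* were not in the promoter table. A match is a description of letters and not evidence of binding.

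The windows below are examples picked by hand to show both cores in members of different roles, and they are not all the matches found. Each is 30 bases of RefSeq sequence (GRCm38.p6), written 5′ to 3′ on the strand of its gene, with the core in capitals and with the GRCm39 position at which the same bases were found.
*Stat2*, ISRE core, chr10:128106135-128106164, plus strand: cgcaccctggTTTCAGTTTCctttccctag
*Ifit1*, ISRE core, chr19:34618175-34618204, plus strand: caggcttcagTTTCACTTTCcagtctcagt
*Isg15*, ISRE core, chr4:156285322-156285351, minus strand: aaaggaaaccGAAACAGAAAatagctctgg
*Oas1a*, ISRE core, chr5:121045583-121045612, minus strand: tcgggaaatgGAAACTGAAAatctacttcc
*Oas1g*, ISRE core, chr5:121025669-121025698, minus strand: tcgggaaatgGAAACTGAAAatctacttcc
*Gbp2*, ISRE core, chr3:142326355-142326384, plus strand: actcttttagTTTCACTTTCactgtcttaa
*Irgm1*, ISRE core, chr11:48762252-48762281, minus strand: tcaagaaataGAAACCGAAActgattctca
*Igtp*, ISRE core, chr11:58090338-58090367, plus strand: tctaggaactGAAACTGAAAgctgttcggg
*Igtp*, GAS core, chr11:58090327-58090356, plus strand: aactagccatTTCTAGGAActgaaactgaa
*Irf1*, GAS core, chr11:53660741-53660770, plus strand: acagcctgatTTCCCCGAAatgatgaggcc
The *Oas1a* and *Oas1g* windows are identical over all 30 bases, and the ISRE and GAS windows of *Igtp* overlap one another. The *Irf1* promoter held a GAS core and no ISRE core in this window.

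All 38 members were expressed in the crypts of all 6 mice, and none passed an adjusted p of 0.05 in either direction (limma). Across all genes tested, 0.498% were called higher and 0.144% were called lower in GSK503-treated mice. The median log2FC of the members was −0.05, against −0.01 for all genes tested, with a range from −0.69 to 0.84. The mean was higher after GSK503 for 14 of the 38 members and lower for 24, beside a lower mean for 51.1% of all genes. An absolute log2FC under 0.25 was found for 29 of the 38 members (76.3%), and for 66.7% of all genes. At an unadjusted p below 0.05, 3 of 38 members were found, *Mx1* and *Stat2* with higher means and *Mx2* with a lower mean, which is 7.89% of the members against 13.3% of all genes (7.06% higher and 6.27% lower). The same 3 genes were the members whose groups did not overlap. Over all genes 19.1% did not overlap, with the GSK503 mice above the controls for 9.84% and below them for 9.22%. The limma-voom test on counts recovered from the scaled values also called 0 members at an adjusted p of 0.05, where it called 0.619% of all genes, and 3 at an unadjusted p below 0.05, where it gave 13.4% of all genes.

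The intervals show how large a difference remained possible. The 95% interval of the log2FC lay within ±1 for 36 of the 38 members and within ±0.5 for 21, and its half-width ran from 0.17 to 0.77 with a median of 0.34. The intervals of *Mx1* and *Mx2* reached past 1 in size. For 36 members the range among the 3 control mice was wider than the absolute log2FC, and for 31 this was so in both groups. A range of single mice and a difference of means are unlike measures, and the share over all genes was not counted. An exact two-sided permutation test of 3 mice against 3 cannot give a p below 0.1.

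**Figure D1:**
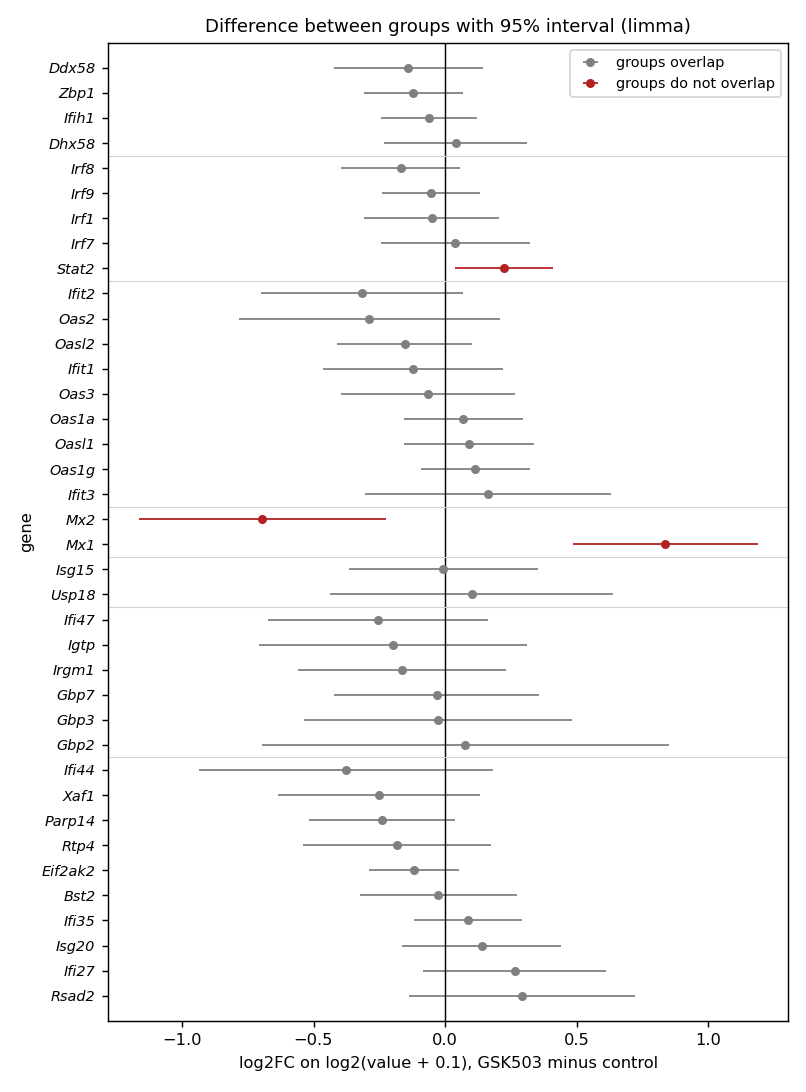
Difference between groups for each interferon-stimulated gene. Points are the log2FC (GSK503 minus control, n = 3 mice each) and bars are 95% intervals from limma, with genes grouped by role and red marking genes whose groups did not overlap. *Mx1* at 0.84 and *Mx2* at −0.69 stand at the ends, and the other 36 genes lie between −0.38 and 0.29.

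The Mx genes, a pair of dynamin-like GTPases that act against RNA viruses, gave the largest differences of the list and in opposite directions. C57BL/6 and many other laboratory strains carry defective alleles of both genes, which are nonetheless induced by interferon. *Mx1* measured 12.8, 11.2 and 8.83 scaled CPM in controls 1, 2 and 3, against 16.9, 20.1 and 21.5 in GSK503 mice 1, 2 and 3. All 3 GSK503 mice exceeded all 3 controls, with means of 10.9 ± 1.99 and 19.5 ± 2.34 (SD, n = 3 each). The log2FC was 0.84 (standard error 0.16, 95% interval 0.49 to 1.19), and the adjusted p of 0.0505 from limma was just above the threshold. *Mx1* was the only member below an adjusted p of 0.1, a level that 1.41% of all genes reached in the higher direction. Over 15 alternatives the adjusted p ranged from 0.0470 to 0.243, while the log2FC stayed between 0.69 and 0.96. It was below 0.05 in 2 of them, at 0.0487 with a filter of at least 1 scaled CPM in 3 mice and at 0.0470 without control 1.

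*Mx2* measured 5.65, 7.41 and 8.29 scaled CPM in controls 1, 2 and 3, against 5.26, 4.22 and 3.58 in GSK503 mice 1, 2 and 3. All 3 GSK503 mice were below all 3 controls, although GSK503 1 came close to control 1. The log2FC was −0.69 (standard error 0.21) and the adjusted p was 0.185, so the difference did not pass the test. Both genes lie on chromosome 16 of GRCm39, *Mx1* at chr16:97248235-97264107 on the minus strand and *Mx2* at chr16:97336508-97362100 on the plus strand, 72.4 kb apart. *Mx1* is overlapped by the annotated antisense gene *Gm60893*. Of the 38 members, 22 are overlapped by another annotated gene and 20 by one on the opposite strand, among them *Irf1*, *Irf7*, *Eif2ak2*, *Ifi27*, *Oas1a*, *Ifit1* and *Parp14*. These overlaps are of whole gene spans, and whether exons overlap was not checked. The library kit marks strand, but the strand setting used in counting is not given in the sources used here. Whether reads from any shared exon bases were assigned to the right gene is therefore uncertain.

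**Figure D2:**
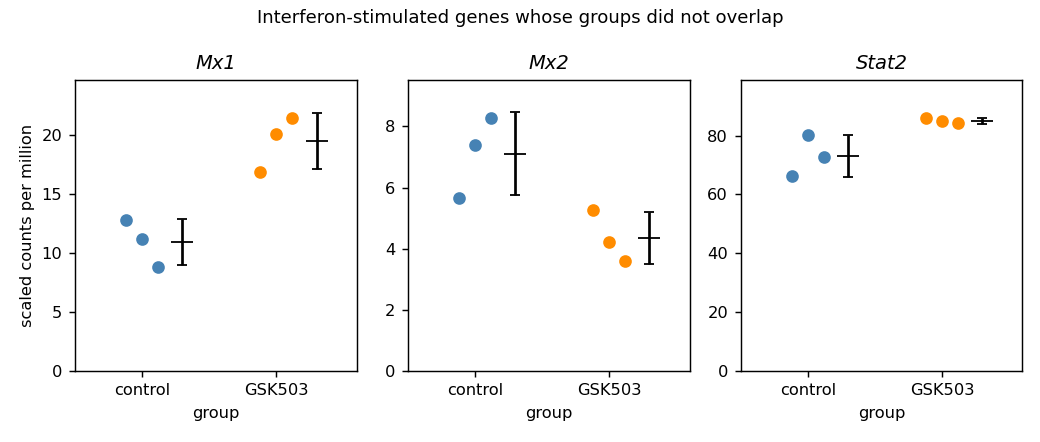
*Mx1*, *Mx2* and *Stat2* in each mouse. Points are scaled CPM of single mice on axes that start at 0, and the bars beside them are the mean ± SD of 3 mice. The treated mice lie above all control mice for *Mx1* and *Stat2* and below them for *Mx2*.

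Of the signal transducers and transcription factors, *Stat2* alone had groups that did not overlap. STAT2 is the subunit of the type I and type III interferon complex that carries its activation domain. It measured 66.2, 80.2 and 72.8 scaled CPM in controls 1, 2 and 3, against 86.1, 84.9 and 84.1 in GSK503 mice 1, 2 and 3. The treated mice were nearly equal, whereas the control mice were spread more widely. The log2FC was 0.22 (standard error 0.08) and the adjusted p was 0.289. *Irf8*, which drives myeloid development and interferon gamma responses, measured 121, 156 and 143 in the controls, against 132, 116 and 124 in the GSK503 mice (log2FC −0.17, standard error 0.10, adjusted p = 0.514). The *Irf8* groups overlapped, and the log2FC was −0.086 without control 2 and −0.27 without control 1.

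*Irf1*, the factor that carries interferon gamma signals to secondary targets, had the highest level per kilobase of exon of all members, at 62.1 scaled CPM per kb, followed by *Irf7* at 30.2. *Irf1* measured 270.3, 343 and 275 scaled CPM in the controls, against 281, 256 and 319 in the GSK503 mice. *Irf7*, the amplifier of type I interferon production, measured 112, 122 and 103 in the controls, against 94.8, 137 and 117 in the GSK503 mice. Both overlapped between the groups, with a log2FC of −0.05 and 0.04. *Irf9*, the DNA-binding partner of STAT2, had a log2FC of −0.05 and one of the narrowest intervals, from −0.24 to 0.13.

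The sensors *Ifih1* and *Ddx58*, which encode the RNA receptors MDA5 and RIG-I, their regulator *Dhx58* and the Z-nucleic acid sensor *Zbp1* all overlapped between the groups. Their log2FC ran from −0.14 for *Ddx58* to 0.04 for *Dhx58*, with adjusted p from 0.581 to 0.928. *Ifih1* measured 124, 148 and 139 scaled CPM in the controls, against 127, 132 and 134 in the GSK503 mice. Its interval, from −0.24 to 0.12, was among the narrowest of the list.

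The Ifit genes encode proteins that bind foreign RNA, and the Oas genes encode synthetases that activate RNase L. *Oasl1* and *Oasl2* encode Oas-like proteins. Of these 9 genes, 4 had a higher mean and 5 a lower mean after GSK503, with log2FC from −0.32 to 0.16, and none passed the test. *Ifit2* had the smallest p of the group and measured 38.8, 66.3 and 46.6 scaled CPM in the controls, against 35.4, 42.1 and 41.6 in the GSK503 mice (log2FC −0.32, standard error 0.17, adjusted p = 0.471). Control 2 stood above the other 5 mice for this gene, and the log2FC was −0.10 without control 2 and −0.49 without control 1. *Ifit1* measured 19.0, 23.8 and 20.8 in the controls, against 17.4, 24.5 and 17.1 in the GSK503 mice. The order was different here, as control 2 and GSK503 2 were the highest mice.

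*Ifit3*, *Oas1a*, *Oas1g* and *Oasl1* had higher means and *Oas2*, *Oas3* and *Oasl2* had lower means, all with overlapping groups. *Oas1a* and *Oas1g*, near copies of one another, had a log2FC of 0.07 and 0.11, and since RSEM divides reads that fit both genes, the split between them is uncertain. *Oas2* varied most among the synthetases, from 15.8 scaled CPM in GSK503 3 to 29.2 in control 2.

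*Isg15*, a ubiquitin-like modifier, and *Usp18*, the protease that removes it and dampens the receptor, had a log2FC of −0.01 and 0.10. *Isg15* measured 11.6, 14.1 and 9.95 scaled CPM in the controls, against 12.4, 12.9 and 10.04 in the GSK503 mice. *Usp18* measured 7.04, 14.6 and 10.5 in the controls, against 10.3, 13.0 and 9.98 in the GSK503 mice. The control mice alone spanned the whole range of *Usp18*, and control 2 was the highest mouse for both genes.

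The guanylate-binding proteins *Gbp2*, *Gbp3* and *Gbp7* and the immunity-related GTPases *Igtp*, *Irgm1* and *Ifi47* act against intracellular bacteria and parasites and are typical targets of interferon gamma. In this set 5 of 6 means were lower after GSK503, and no gene passed the test. *Gbp2* measured 69.4, 95.9 and 41.7 scaled CPM in the controls, against 59.3, 47.5 and 116 in the GSK503 mice, the widest range of any member, with the highest mouse 2.77 times the lowest. *Igtp* measured 56.9, 101 and 54.7 in the controls, against 56.7, 49.1 and 74.5 in the GSK503 mice. *Irgm1* measured 91.2, 145 and 94.5 in the controls, against 88.2, 87.1 and 116 in the GSK503 mice. In all 3 genes control 2 and GSK503 3 were the highest mice. Their log2FC was 0.08, −0.20 and −0.16. *Ifi47* was high in control 2 alone, at 54.3 scaled CPM against 29.6 to 33.3 in the other mice. *Igtp* shares its locus with *Irgm2* on the same strand, so its count is uncertain where the 2 genes overlap.

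The other 10 effectors overlapped between the groups, 4 with a higher and 6 with a lower mean. *Rsad2*, which encodes the antiviral enzyme viperin, measured 8.08, 10.1 and 6.17 scaled CPM in the controls, against 9.76, 11.1 and 8.604 in the GSK503 mice (log2FC 0.29, standard error 0.19, adjusted p = 0.554). *Ifi27* measured 22.1, 21.5 and 17.96 in the controls, against 19.6, 25.2 and 30.01 in the GSK503 mice (log2FC 0.27, standard error 0.16, adjusted p = 0.506). For *Ifi27* GSK503 1 lay within the control range. The *Rsad2* log2FC was 0.11 without control 3 and 0.46 without control 2, and that of *Ifi27* was 0.12 without GSK503 3, 0.17 without control 3 and 0.43 without GSK503 1.

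*Ifi44* measured 16.5, 32.9 and 29.4 scaled CPM in the controls, against 15.2, 23.7 and 20.1 in the GSK503 mice (log2FC −0.38, standard error 0.25, adjusted p = 0.556). *Parp14*, an ADP-ribosyltransferase, measured 208, 294 and 245 in the controls, against 192, 206 and 229.8 in the GSK503 mice (log2FC −0.24, standard error 0.12, adjusted p = 0.449). *Eif2ak2*, the kinase PKR that halts translation on sensing double-stranded RNA, measured 92.3, 103 and 94.3 in the controls, against 87.7, 93.8 and 85.0 in the GSK503 mice (log2FC −0.12, standard error 0.08, adjusted p = 0.545). In all 3 genes control 2 was the highest mouse, and control 1 lay within the range of the GSK503 mice. Without control 2 the log2FC was −0.19 for *Ifi44*, −0.11 for *Parp14* and −0.072 for *Eif2ak2*. Without control 1 it was −0.68 for *Ifi44* and −0.36 for *Parp14*, and without GSK503 1 it was −0.20 for *Ifi44*.

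The remaining effectors were *Isg20*, an RNA exonuclease, *Bst2*, the tetherin that holds virions at the cell surface, *Ifi35*, *Rtp4* and *Xaf1*. Their log2FC ran from −0.25 for *Xaf1* to 0.14 for *Isg20*. *Bst2* varied least of all members, between 8.15 and 9.53 scaled CPM.

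**Figure D3:**
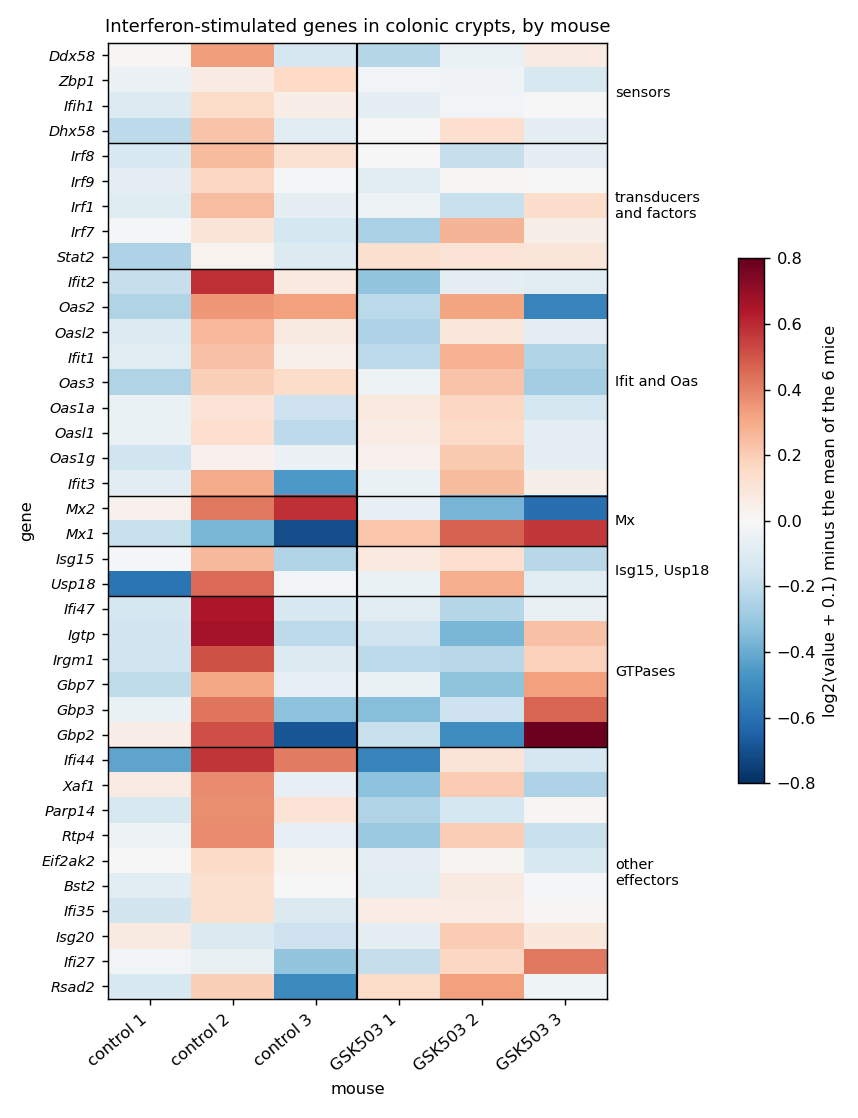
Level of each interferon-stimulated gene in each mouse. Colour is log2(value + 0.1) minus the mean of the 6 mice, rows are genes by role, and the vertical line separates control from GSK503-treated mice. Control 2 is the highest mouse in 22 of 38 rows and the lowest in none, and *Mx1*, *Mx2* and *Stat2* are the rows in which the 2 sides of the line do not overlap.

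A single control mouse stood out across the members. Control 2 was the highest of the 6 mice for 22 of the 38 members (57.9%), against 13.0% of all genes, and it was the lowest for 0. The median deviation of the members from the mean of the 6 mice was 0.25 on the log2 scale in control 2 and 0.10 in GSK503 2, and between −0.10 and −0.05 in the other 4 mice. GSK503 2 was the highest mouse for 8 members and GSK503 3 for 5. Control 1 was the highest for 0 and GSK503 1 was the lowest for 11. Without control 2, the median log2FC of the members turned from −0.05 to 0.06, beside −0.008 for all genes. Then 24 of 38 means were higher after GSK503, and still 0 members passed an adjusted p of 0.05. At an unadjusted p below 0.05, 4 members were found without this mouse, but the share of all genes at this level was not counted there.

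The Ifit and Oas genes and the GTPases shared their high values in control 2 but not in the treated mice. Each of the 9 Ifit and Oas genes was highest in control 2 (4 genes) or in GSK503 2 (5 genes), and the median deviations were −0.11, 0.23 and 0.04 in controls 1, 2 and 3, against −0.05, 0.21 and −0.09 in GSK503 mice 1, 2 and 3. Each of the 6 GTPases was highest in control 2 (3 genes) or in GSK503 3 (3 genes), and 4 of the 6 were lowest in GSK503 2. Their median deviations were −0.15, 0.51 and −0.17 in the controls, against −0.17, −0.28 and 0.28 in the GSK503 mice. The grouping of genes was by role, and the difference between the 2 sets was seen in the values and not tested.

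**Figure D4:**
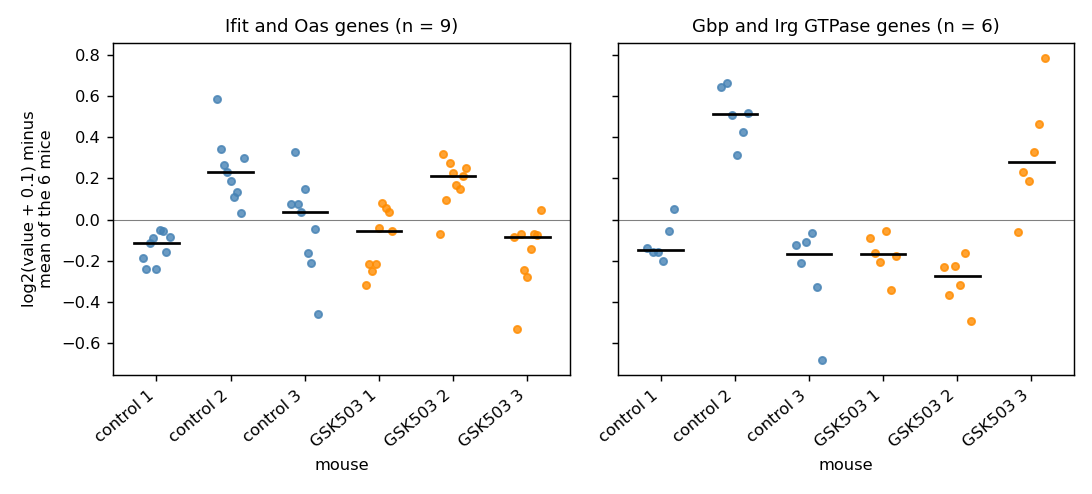
Ifit and Oas genes (n = 9) and Gbp and Irg GTPase genes (n = 6) in each mouse. Points are genes, as log2(value + 0.1) minus the mean of the 6 mice, and black lines are medians. Both sets are high in control 2, while GSK503 2 is high for the first set and low for the second.

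Markers of other cell types moved with some of these values. The sum of 9 macrophage markers was 30.1, 50.1 and 29.9 scaled CPM in controls 1, 2 and 3, against 12.1, 8.47 and 67.1 in GSK503 mice 1, 2 and 3. Control 2 and GSK503 3, the mice with the highest *Gbp2*, *Igtp* and *Irgm1*, thus also had the highest macrophage sums, and GSK503 2 had the lowest. The sums of 5 smooth muscle and 5 fibroblast markers had their highest values in the same 2 mice, at 80.4 and 110.2 for smooth muscle and 76.0 and 109.7 for fibroblasts. None of these 19 markers was at 0 in any mouse. Between the groups, 9 of 9 macrophage, 5 of 5 smooth muscle and 4 of 5 fibroblast markers had lower means after GSK503, and none was called.

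Lymphocyte, dendritic cell and endothelial markers followed other patterns. The sum of 6 B cell markers was 10.5, 28.2 and 4.15 in the controls, against 2.97, 1.13 and 3.77 in the GSK503 mice, with *Cd79a* at 0 in at least 1 mouse. The sum of 6 T cell markers was highest in control 1 at 17.3 and lay between 9.72 and 12.7 in the other 5 mice, and none was at 0. The 6 dendritic cell markers summed to between 2.97 and 5.75, with *Clec9a* at 0 in at least 1 mouse, and the 5 endothelial markers to between 1.86 and 8.68. Means were lower after GSK503 for 6 of 6 B cell, 5 of 6 T cell, 3 of 6 dendritic cell and 5 of 5 endothelial markers and for 0 of 8 epithelial markers, and none was called. The summed levels of 6 goblet cell genes ran from 10122 to 18316 in the controls and from 31336 to 49874 in the treated mice, and 3 of the 6 genes were called higher (limma, adjusted p below 0.05). The part of these cell types in the levels of the interferon-stimulated genes was not tested, and in whole crypts more cells of a type and more RNA per cell cannot be told apart. With control 2 and GSK503 3 both left out, 0 members were called and 20 of 38 means were higher. The median log2FC was then 0.00 for the members, beside −0.0006 for all genes.

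The other genes of the pathway were taken from lists of ligands, receptors, signal transducers, sensors and adaptors, negative regulators and further interferon-stimulated genes, 171 names in all, of which 148 were in the table and were tested. None passed an adjusted p of 0.05 in either direction (limma), beside 0.642% of all genes. At an unadjusted p below 0.05, 5 of the 148 were higher (3.38%, against 7.06% of all genes) and 17 were lower (11.5%, against 6.27% of all genes). The median log2FC was −0.11, and 94 of 148 means were lower after GSK503 (63.5%, against 51.1% of all genes). These directions were not counted without control 2, the highest mouse for 22 of the 38 members, so its part in them is not known.

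Of the ligands, *Ifng* and *Ifnk* were in the table, and the other 19 names were not analysed here. *Ifng*, the T cell and natural killer cell product that activates macrophages, measured 0.632, 0.226 and 0.179 scaled CPM in the controls, against 0.119, 0.0637 and 0 in the GSK503 mice. It is listed at 0 in GSK503 3, where 3 counts would give 0.0250. The groups did not overlap at these low levels, but the log2FC of −1.41 (standard error 0.54) did not pass the test (adjusted p = 0.308). Its size depends on the pseudocount, from −0.56 with 0.5 to −2.75 with 0.01, and it was −3.23 in limma-voom. *Ifnk*, a type I interferon of epithelia, measured 0.860, 0.452 and 0.850 in the controls, against 0.848, 0.358 and 0.632 in the GSK503 mice.

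The 6 receptor chains were present in every mouse. *Ifnar1* and *Ifnar2*, the type I receptor, measured 44.1 to 51.0 and 4.17 to 5.09 scaled CPM. *Ifngr1* and *Ifngr2*, the receptor of interferon gamma, measured 175 to 192 and 109 to 137. *Ifnlr1* and *Il10rb*, the type III receptor, measured 11.6 to 15.2 and 50.1 to 56.6. None passed the test, with adjusted p of 0.554 or more and log2FC from −0.06 to 0.13.

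Among 14 genes of the JAK, STAT and IRF families, 6 had higher and 8 had lower means. *Irf2*, an IRF that competes with IRF1 at its sites, measured 54.3, 44.3 and 64.9 scaled CPM in the controls, against 44.0, 36.6 and 43.4 in the GSK503 mice (log2FC −0.39, adjusted p = 0.258), and its corepressors *Irf2bp2* and *Irf2bp1* had a log2FC of −0.17 and 0.15. Of 20 sensors and adaptors, 8 were higher and 12 were lower. *Tlr3*, the endosomal receptor of double-stranded RNA, measured 28.2, 31.6 and 38.1 in the controls, against 23.7, 25.6 and 25.3 in the GSK503 mice (log2FC −0.38, adjusted p = 0.191). The treated mice lay below the control mice for *Irf2* and *Tlr3*, whereas the groups of *Traf6* (log2FC −0.21) and *Sting1* (log2FC −0.27) overlapped. Over the 14 genes the groups did not overlap for 2 with higher values (14.3%, *Jak2* and *Irf2bp1*) and for 1 with lower values (7.14%). Over the 20 sensors and adaptors this was so for 0 with higher values and 1 with lower values (5%). The shares of all genes tested were 9.84% higher and 9.22% lower.

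Of 22 negative regulators, 9 were higher and 13 were lower. *Cish* and *Socs2*, feedback inhibitors of cytokine receptors, did not overlap between the groups and had higher means after GSK503, with a log2FC of 0.44 and 0.35 and an adjusted p of 0.184 and 0.186. *Cish* measured 9.15, 8.49 and 8.55 scaled CPM in the controls, against 12.3, 10.5 and 12.9 in the GSK503 mice. *Pias4*, a SUMO ligase that restrains STAT signaling, had a log2FC of 0.26 (adjusted p = 0.300). Over the 22 genes the groups did not overlap for 4 with higher values after GSK503 (18.2%, *Cish*, *Socs2*, *Pias4* and *Ptpn11*). They did not overlap for 3 with lower values (13.6%, *Pias2*, *Nlrx1* and *Trim24*). The shares of all genes tested were 9.84% higher and 9.22% lower, and none of the 22 genes passed the test.

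The 84 further interferon-stimulated genes had a median log2FC of −0.15, with 27 higher and 57 lower means. *Tor3a*, an ATPase of the endoplasmic reticulum, measured 38.3, 39.0 and 32.4 scaled CPM in the controls, against 47.3, 57.2 and 49.8 in the GSK503 mice (log2FC 0.49, adjusted p = 0.0754). *Mov10*, an RNA helicase that restricts retroelements, measured 57.7, 47.2 and 52.2 in the controls, against 36.4, 40.5 and 39.6 in the GSK503 mice (log2FC −0.43, adjusted p = 0.0812). *Phf11b* had the same log2FC of −0.43 (adjusted p = 0.144). These 3 genes were named for their small p. Over all 84 genes the groups did not overlap for 1 with higher values after GSK503 (*Tor3a*, 1.19%) and for 12 with lower values (14.3%), beside 9.84% and 9.22% of all genes tested, and none of these passed the test. Of these 12, control 2 was the highest mouse for *Dtx3l*, *Ifi203*, *Ifi213*, *Slfn5*, *Phf11b*, *Sp100*, *Trafd1* and *Znfx1*. Control 1 was the highest for *Oas1c* and *Mov10*, and control 3 for *Pml* and *Casp4*. The direction of this list without control 2 was not counted.

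**Figure D5:**
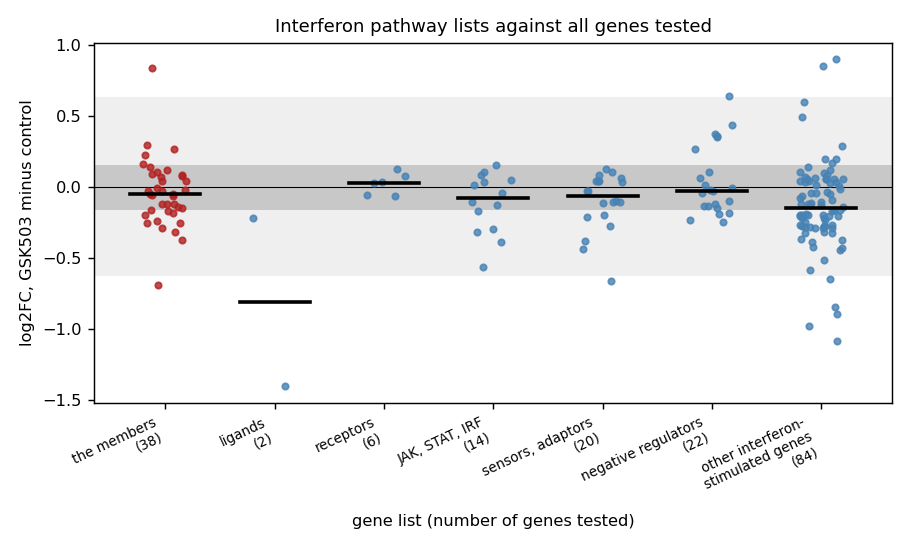
Difference between groups for the members and for 6 lists of other interferon pathway genes. Points are the log2FC of single genes, black bars are list medians, and the dark and light bands hold the middle 50% and 90% of all genes tested. Medians lie between −0.15 and 0.03 except for the ligands, which rest on 2 genes of low level.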

How the data were processed

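Paired-end 76 bp reads of crypt total RNA had been mapped by the authors to GRCm39 (STAR), quantified as estimated counts (RSEM) and TMM-scaled in edgeR. The deposited signal is this estimated count relative to the TMM-scaled library size, expressed as CPM, and the columns sum to between 975566 and 1076042. Between 75.2% and 78.0% of values were whole multiples of the library's step (tolerance 0.01 counts), from which depth was estimated. Samples were grouped by their titles.

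Because the table holds scaled values, limma (version 3.58.1, R 4.3.3) was used with lmFit and eBayes with an intensity trend on log2(value + 0.1), over genes with at least 0.1 in at least 3 mice. This filter left out 1379 genes. Standard errors and 95% intervals are from the same fit. A log2FC with a pseudocount understates the change of low genes. The members and all gene lists were chosen with earlier results of these data known. Values in every mouse were given for the 10 members with the smallest p and for members whose groups did not overlap, and further members were chosen after their values were seen. From each pathway list without a call, the 3 genes with the smallest p were named. Positions and exon lengths are from GENCODE for GRCm39, and promoters are from RefSeq. No 2 libraries held identical values, and r between libraries lay between 0.977 and 0.990. On simulated data, 99 of 100 genes changed by 1 on the log2 scale were called, with 8 false calls among 16702 genes. The simulation gave every gene the same dispersion and no differences between mice that genes share. It therefore checks the code and does not show how often such a change would be called in these mice.

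Alternatives were other scaling, filters, pseudocounts and variance trend, limma-voom, a replicate block and leaving out each mouse, and 1 pair of mice left out was chosen after seeing the data. Python 3.11.15, numpy 2.4.6, pandas 2.3.3 and matplotlib 3.10.9 were used. Data of the study other than crypt RNA-Seq were not analysed here. Some items are not reported here.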

Additional observations from a re-analysis of the deposited data

How the results depend on the processing

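Across 15 alternatives, the count of members past an adjusted p of 0.05 (limma) was 0 in each direction except with a filter of at least 1 in 3 mice and without control 1, where it was 1 higher member (*Mx1*), so that the range on leaving out a mouse was 0 to 1. The count of other pathway genes was 1 lower with library size alone (*Mov10*), and on leaving out a mouse it ranged from 0 to 1 higher and from 0 to 1 lower (*Dtx3l* without control 1, *Rnaseh2c* and *Gbp8* without GSK503 3). Of the single genes, *Ifnk*, fitted in 14 alternatives, turned to 0.066 without GSK503 2. Its lowest value was −0.48 on leaving out 1 mouse (control 2) and −0.53 over all its alternatives. *Ifnar1* turned to −0.035 with library size alone. *Ifnlr1* turned to 0.057 without GSK503 3 and to 0.086 without control 2 and GSK503 3. Its lowest value was −0.14 on leaving out 1 mouse (GSK503 1) and −0.17 over all alternatives. The turned values all had an adjusted p above 0.8. Library size alone moved the median log2FC of all genes to −0.12 and that of the members to −0.17. In this setting 7 of 38 means were higher and 8 members had an unadjusted p below 0.05. The shares of all genes for these 2 counts were not taken in this setting. The median of the members lay between −0.14 and 0.06 on leaving out a mouse.

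The number of calls over all genes moved with the settings. Against 83 higher and 24 lower genes, there were 9 and 7 without the intensity trend, 83 and 178 with library size alone, 23 and 10 with a replicate block, 37 and 7 without control 2, 40 and 9 without control 3, 51 and 12 without GSK503 1, 20 and 9 without GSK503 2 and 116 and 100 without GSK503 3, and the cause was not tested. Without control 1 there were 92 and 15, and without control 2 and GSK503 3 there were 54 and 32. After each group's mean was subtracted from every gene, same-numbered mice correlated at 0.03, −0.13 and −0.12. Mice with different numbers correlated at −0.17 to 0.22. The numbers were not taken as pairs, although with 3 mice per group these values cannot show whether any pairing existed. With the replicate block 0 members were called and 6 had an unadjusted p below 0.05. The share of all genes at this unadjusted level was not counted with the block. Depth did not limit the members, whose lowest value of 3.58 was far above 3 counts, but *Ifng* lay near it.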

Other observations

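The following interferon pathway genes outside the 38 members were named after their values were seen, and none passed the test. *Cxcl10*, a chemokine that attracts T cells, measured 0.807, 1.77 and 0.724 scaled CPM in controls 1, 2 and 3, against 1.36, 1.62 and 3.53 in GSK503 mice 1, 2 and 3 (log2FC 0.90, adjusted p = 0.420, limma), and the groups overlapped. *Cxcl9*, a related chemokine, was highest in GSK503 3 at 15.7, against 4.31 to 6.22 in the other 5 mice. *Gbp10* was highest in GSK503 2 at 5.01, against 0.681 to 1.19 in the other 5 mice. These high values were each set by single treated mice.

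*Gbp8*, a guanylate-binding protein, measured 13.7, 15.4 and 12.8 scaled CPM in the controls, against 6.43, 3.97 and 15.9 in the GSK503 mice (log2FC −0.90, adjusted p = 0.372, limma). GSK503 3 was the highest mouse, and the other 2 treated mice were the lowest. *Socs1*, the inhibitor of JAK kinases, measured 1.89, 3.01 and 2.27 in the controls, against 4.63, 2.94 and 3.74 in the GSK503 mice (log2FC 0.64, adjusted p = 0.329), and the groups overlapped by a single pair of mice.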
